A study of Mus musculus with 2 samples.

Results

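The 9 surface molecules that are used to sort or describe liver progenitor cells and that were read here on 2 arrays are Cd24a, Cd44, Prom1, Anpep, Kit, Alcam, Ncam1, Vcam1 and Icam1. They were chosen by name as such markers, at a time when earlier results of these arrays were known, and every spot of the array design that carries 1 of these names and is not a control was taken, which gave 9 of 30175 named genes and 16 probes. One array held RNA of mature hepatocytes (MHs), collected by low-speed and Percoll gradient centrifugation from healthy livers. The other held RNA of Sox9+EpCAM- cells, which FACS had collected as GFP+EpCAM- cells from the livers of DDC-fed mice of the Sox9-EGFP line. DDC is a diet additive that damages bile ducts and induces ductules. According to the methods the healthy livers also came from Sox9-EGFP mice, in which GFP stands in for Sox9. The diet lasted 2 weeks for the cells of the quantitative PCR that went with the arrays, and whether this holds for the array cells is not stated. The age of the mice and the number of mice behind each array are not given in the sources used here. With 1 array per group there was no replicate, no SD between animals and no test, so each difference describes these 2 RNAs.

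The labels were checked before the members were read. Both samples are labelled male, but Xist, the RNA of the inactive X chromosome of females, had intensities of 1940 in MHs and 16.1 in Sox9+EpCAM- cells, the latter not well above background. Ddx3y and Kdm5d of the Y chromosome had intensities of 642 and 490 in Sox9+EpCAM- cells and were not well above background in MHs. Sex therefore went against the label of the MH array, and sex, diet and isolation cannot be told apart in any value below. All 8 hepatocyte markers were well above background on both arrays, and all 8 were lower on the Sox9+EpCAM- array, with a median log2 difference of -1.06. Hnf4a, with intensities of 4990 in MHs and 6360 in Sox9+EpCAM- cells, was lower (log2 -0.23) only after the scaling described below. Tat and Cyp2e1, enzymes of amino acid and drug metabolism, were 5.51-fold and 44.2-fold lower. Epcam, against whose protein the cells had been gated, had intensities of 139 and 2770, a 13.3-fold higher value in the cells sorted as EpCAM-. In RNA of many cells, a change in the number of cells of a type and a change in RNA per cell cannot be told apart.

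The 9 molecules fall into a few kinds. CD24, CD44 and prominin-1 (Prom1, also known as CD133) are widely used to enrich progenitor and tumour-initiating cells. CD24 is a small GPI-anchored glycoprotein that binds P-selectin and Siglec receptors. CD44 is the main receptor for hyaluronan and also binds osteopontin, and part of its extracellular stalk is encoded by variable exons that are spliced in or out. Aminopeptidase N (Anpep, CD13) cleaves peptides at the cell surface, and Kit is the receptor tyrosine kinase for stem cell factor. Alcam, Ncam1, Vcam1 and Icam1 are adhesion molecules with immunoglobulin domains, of which Vcam1 and Icam1 are induced by inflammatory cytokines and bind leukocyte integrins.

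Each probe is 60 bases long and was printed on 1 spot, and none of the 16 spots was flagged or saturated. Intensities below are the processed signals of the scanner software, in arbitrary units. Differences are on the log2 scale, Sox9+EpCAM- minus MH, after each array was divided by its 75th percentile (741 for MHs, 1110 for Sox9+EpCAM- cells), so that equal intensities correspond to a difference of -0.58. The software gives an error for each signal, and carried into the log2 difference it was 0.20 to 0.31 for the members. The median SD between spots of probes printed at least 8 times was 0.08 on each array. Neither error holds the variation between mice. Where the software did not mark a spot as well above background, its value is only an upper limit, and the difference is given as a bound.

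**Figure D1:**
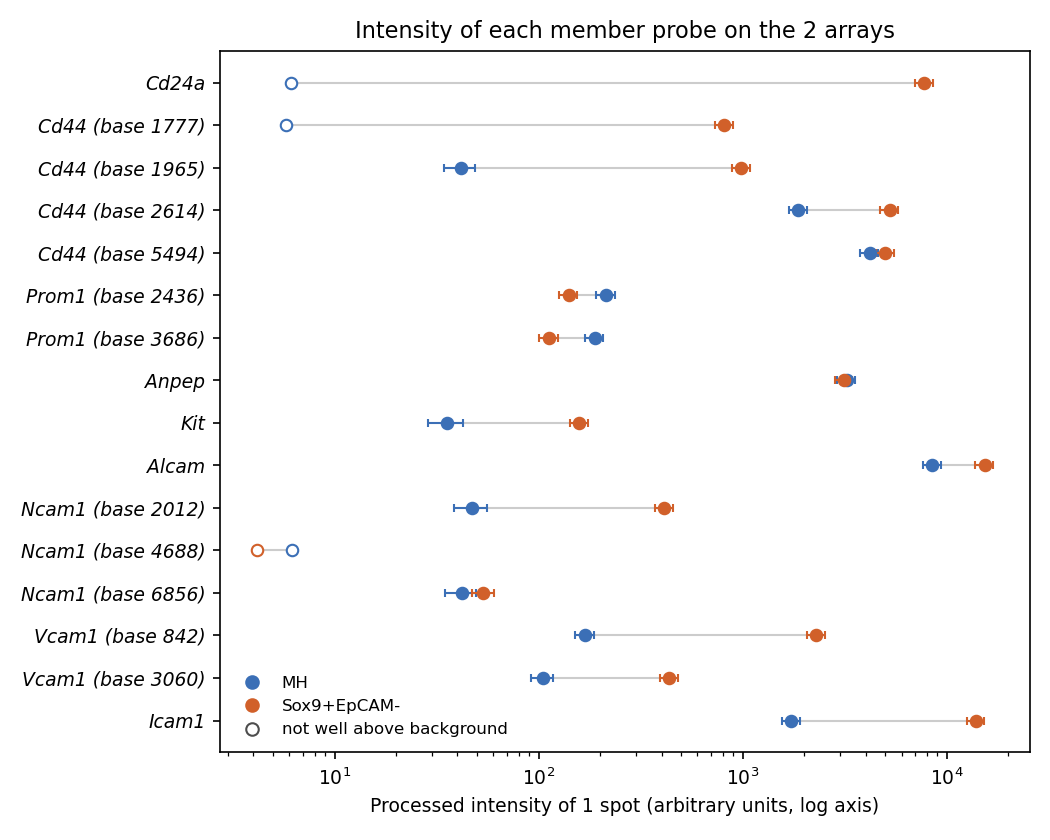
Processed intensity of the 16 member probes (log axis, arbitrary units) in MHs (blue) and Sox9+EpCAM- cells (orange), with the error of the scanner software. Open points were not well above background. The largest distances are those of Cd24a and of the Cd44 probes at transcript bases 1777 and 1965, and the Prom1 and Anpep points lie close together.

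Of the 15 member probes with a difference, 6 (40.0%) were higher by at least 4-fold in Sox9+EpCAM- cells, against 6.24% of all 30072 probes, and 0 were at least 4-fold lower, against 5.74% of all probes. A further 4 were higher and 5 lower by less than 4-fold. Since the higher values of Cd24a and Cd44 on these arrays were known when the genes were chosen, and their probes make up 3 of the 6, these shares describe the members and support nothing beyond them. The median over member probes was 1.47, and that over all probes was 0.00, or -0.09 when the 2085 probes whose bound fell under 1-fold, entered at 0, were left out. With the brightest probe standing for a gene, 4 of 9 members (44.4%) were at least 4-fold higher, namely Cd24a, Ncam1, Vcam1 and Icam1, against 5.59% of all 23417 genes. No member gene was at least 4-fold lower, against 5.57% of all genes. With any probe of a gene counted, Cd44 joined them, which made 5 of 9 members (55.6%) against 7.38% of all 23424 genes, and left Prom1, Anpep, Kit and Alcam without a probe past 4-fold. Ncam1 lost its place under normexp background correction, with 1.35, and by the median of its probes, with 1.16.

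**Figure D2:**
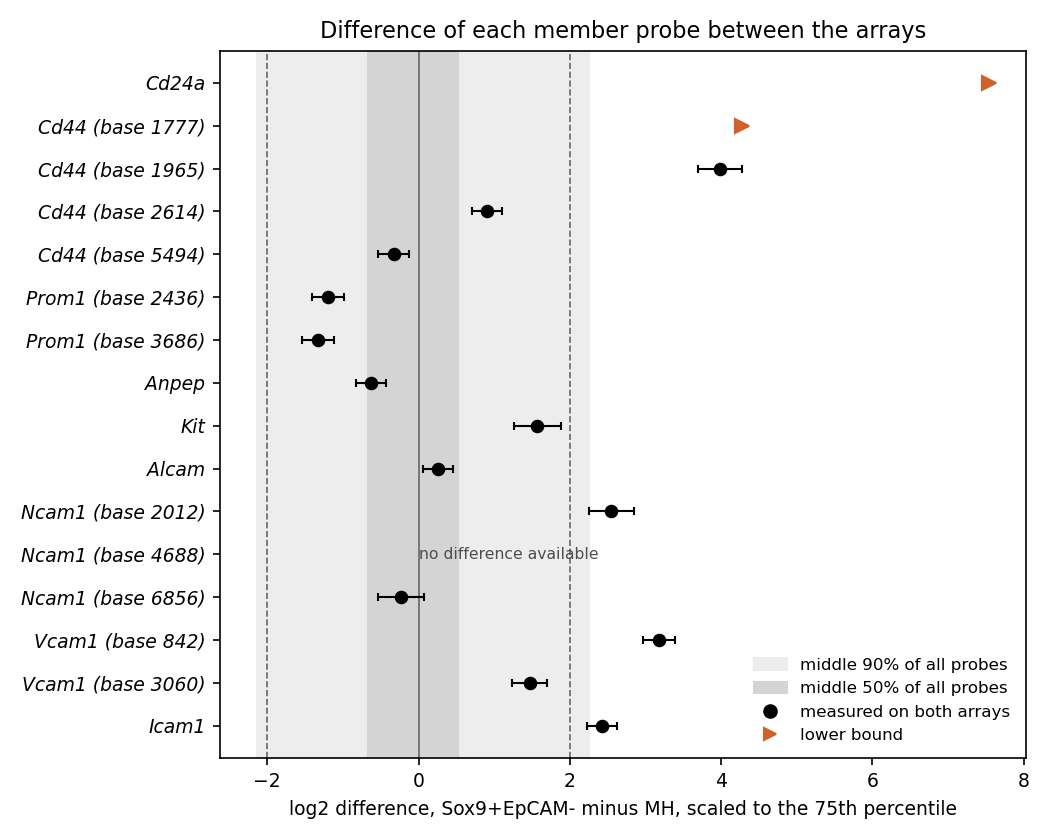
Log2 difference (Sox9+EpCAM- minus MH) of each member probe. Points were measured on both arrays and carry the error of the scanner software, triangles are lower bounds, dashed lines mark 4-fold, and the shaded bands hold the middle 50% and 90% of all probes, the latter from -2.14 to 2.25. There are 6 probes to the right of the upper dashed line and 0 to the left of the lower.

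Cd24a had the largest value, a lower bound, among the differences and bounds of the members. Its probe, at bases 43303706 to 43303765 of chromosome 10 (mm9, plus strand), lies at base 1450 of the transcript, outside the coding sequence. The intensity was 7740 in Sox9+EpCAM- cells and 6.12 in MHs, where the spot was not well above background. Measured against 27.8, the lowest MH signal well above background, this is at least 186-fold, or 7.54 on the log2 scale. Of all probes, 0.0166% had a difference or bound as large. Since the MH signal is only a limit, the ratio itself is not known, and with normexp background correction the difference was 5.91. Of the binding partners of CD24, Selp, which encodes P-selectin, had intensities of 1422 and 425, a log2 difference of -2.32. Siglecg had intensities of 300 and 94.5 on its brighter probe, a difference of -2.25, while its other probe allowed no bound above 1-fold.

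Cd44 gave a different answer from each part of its transcript. It has 4 probes, all on the minus strand of chromosome 2 (mm9), starting at bases 1777, 1965, 2614 and 5494 of the listed transcript. No transcript annotation was used, and from textbook knowledge of the coding sequence the 2 probes nearest the 5′ end are placed in the block of variable exons. The third holds the last 15 codons, the stop codon and 12 bases beyond it, which CD44 isoforms of the usual length share. The letters of these 3 probes are given because their place in the transcript goes with the size of the difference, with the stop codon in capitals, in the order of the transcript (chr2:102677971-102678030, chr2:102672645-102672704 and chr2:102654278-102654337, minus strand).
Cd44 base 1777: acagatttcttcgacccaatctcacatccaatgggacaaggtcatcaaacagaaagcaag
Cd44 base 1965: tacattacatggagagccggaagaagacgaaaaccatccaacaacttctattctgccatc
Cd44 base 2614: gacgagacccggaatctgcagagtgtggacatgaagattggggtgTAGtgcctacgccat

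The probe at base 1777 had an intensity of 811 in Sox9+EpCAM- cells, at least 19.5-fold higher (4.28 on the log2 scale) than in MHs, where it was 5.76 and not well above background. Next to it, the probe at base 1965 was measured on both arrays, with 41.5 and 984, a 15.8-fold difference (log2 3.98, error 0.29). With normexp background correction the differences of these probes were 2.87 and 2.68, both still past 4-fold. Both probes were near or below the limit of measurement in MHs and clearly above it in Sox9+EpCAM- cells. The probe that ends the coding sequence was bright on both arrays, with 1870 and 5240, and differed by 1.87-fold (log2 0.90, error 0.20). Farther on, the probe at base 5494, in the non-coding 3′ part (102651398 to 102651457), had 4190 and 4990, a difference of -0.33 with an error of 0.20. Over the 3 probes measured on both arrays the differences spanned 4.32 on the log2 scale. The median span of the 599 genes with 3 such probes was 1.19, and 1.84% of them reached that of Cd44. Without the probe at base 5494, whose letters are described next, the span of Cd44 was 3.08, against a median of 0.68 over the 3022 genes with 2 measured probes free of shared stretches, of which 3.84% reached it.

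The last of these probes, at base 5494, differs from the others in its letters. It holds the letters TTTTG 4 times in a row, which 2 of 39429 probes on the array do, and it was the only member probe with 20 bases in a row that also occur in the probe of some other gene, as 7.19% of all probes do. It shares such a stretch with probes of 3 other genes. What RNA bound it was not tested. As it is the brightest of the 4, it stands for Cd44 wherever 1 probe per gene is used. The brightest of the probes without a shared stretch is that at base 2614, and the median of all 4 gave 2.44.

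The difference became smaller toward the 3′ end in Cd44, Ncam1 and Vcam1, by 4.32 (3.08 without the probe at base 5494), 2.78 and 1.71 from the first to the last measured probe, and by 0.14 in Prom1. Of 2716 genes with probes at least 500 bases apart and measured on both arrays, the first probe had the higher difference in 48.3%, with a median of -0.03 for the first minus the last and 5th and 95th percentiles of -2.26 and 2.48. The value of Vcam1 thus lay inside this range, that of Ncam1 a little outside it and that of Cd44 farther outside.

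**Figure D3:**
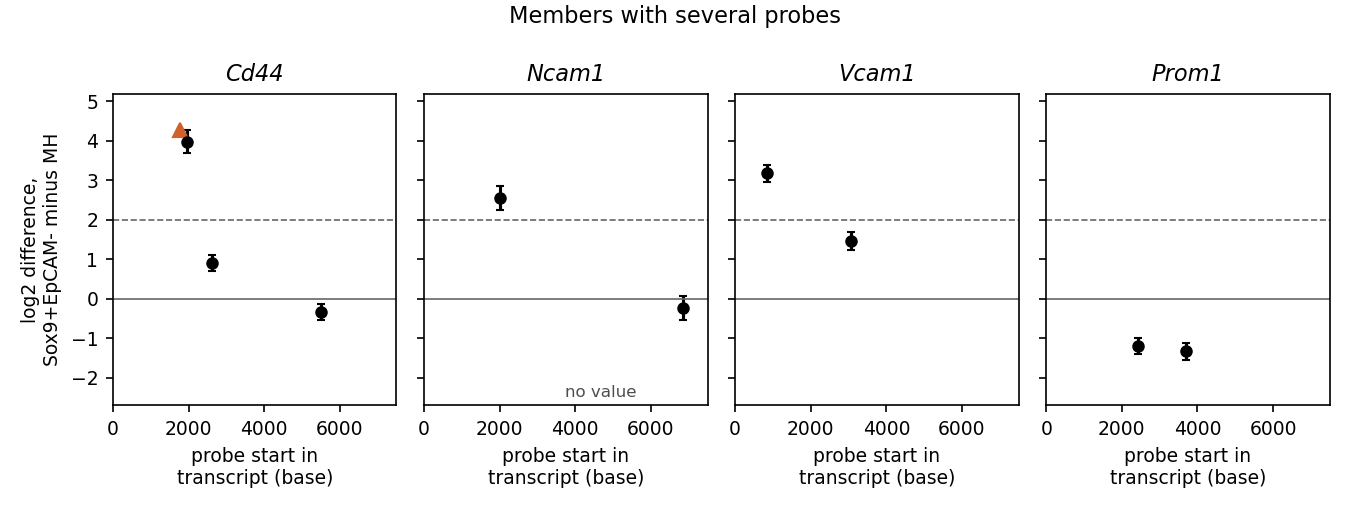
Log2 difference (Sox9+EpCAM- minus MH) of each probe of the 4 members with several probes, against the base of the transcript at which the probe starts. Points carry the error of the scanner software, the triangle is a lower bound, the dashed line marks 4-fold, and the Ncam1 probe without a value was not well above background on either array. The points fall from left to right in Cd44, Ncam1 and Vcam1 and are level in Prom1.

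Among the partners of CD44, a ligand had the largest measured difference. Spp1, which encodes osteopontin, had intensities of 258 and 47000, 122-fold higher in Sox9+EpCAM- cells. Of the hyaluronan synthases, Has1 was not well above background on either array, Has2 had 47.1 and 36.1 (log2 -0.97), and Has3 had 29.0 in Sox9+EpCAM- cells and a signal not well above background in MHs, which allowed no bound above 1-fold. Vcan, a proteoglycan that binds hyaluronan, was at least 12.2-fold higher by its brightest probe, and its other 2 probes were not well above background on either array. Stab2, the endothelial receptor that clears hyaluronan, was 8.09-fold lower. Of the splicing regulators that favour the variable exons of CD44, Esrp2 had a log2 difference of -0.51, and the probes of Esrp1 disagreed, with -0.88 for the brighter (80.8 and 65.6) and 0.30 for the other (41.4 and 76.5). Over the whole list of hyaluronan and CD44 partners, 13 of 15 genes had a difference, of which 2 were at least 4-fold higher and 1 lower, with a median of -0.58 against -0.04 over all genes (-0.64 and -0.12 without the genes whose bound fell under 1-fold).

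Prom1 was lower on the Sox9+EpCAM- array by both of its probes on chromosome 5 (mm9). The one at base 2436 (44397410 to 44397469) had intensities of 214 and 140, 2.29-fold lower (log2 -1.20, error 0.21). That at base 3686 (44384861 to 44384920) had 188 and 112, 2.51-fold lower (log2 -1.33, error 0.21). The 2 probes thus differed by less than their error, and 85.5% of the 3274 genes with 2 measured probes had a span as large. Of all probes, 13.7% and 11.8% had values as low. Prom2, its only close relative, had intensities of 2480 and 40.2 on its brighter probe, 92.4-fold lower, and its other probe was lower too, with a bound of -4.00.

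Anpep, which hepatocytes carry on their canalicular face, was nearly equal in raw signal. Its probe on chromosome 7 (86966716 to 86966775, mm9, base 3336 of the transcript) had intensities of 3230 and 3130, which after scaling is 1.55-fold lower (log2 -0.63, error 0.20). Of 8 other aminopeptidases and membrane peptidases, 0 were at least 4-fold higher and 1 lower. Their median was -0.47, and it was -1.06 when all probes of a gene were used. The probes of Mme, the endopeptidase neprilysin, disagreed, with 280 and 398 on the brighter by the mean of both arrays (log2 -0.08) and 382 and 104 on the other (log2 -2.46). The 1 was Erap1, an aminopeptidase that trims antigenic peptides, which was 7.12-fold lower, with 9030 and 1900.

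Kit was 2.96-fold higher, short of 4-fold. Its probe on chromosome 5 (76052394 to 76052453, mm9, base 4828) was dim, with 35.6 in MHs and 158 in Sox9+EpCAM- cells (log2 1.57, error 0.31). It lay close to the limit of 27.8 in MHs, and with a background correction that raises low signals the difference was 0.59. Its ligand Kitl, stem cell factor, had 103 and 211 (log2 0.45). Of 4 related receptors, Pdgfra was at least 3.58-fold higher, Csf1r (log2 -0.42) and Flt3 (log2 0.06) lay within 4-fold by their brightest probes, and Pdgfrb was not well above background on either array, so the median over the 3 with a difference was 0.06, and it was -0.65 when all probes of a gene were used. Another probe of Csf1r had 1420 and 326 (log2 -2.71) and the third had -0.70, and a dimmer probe of Flt3 had -1.36. Mast cells also carry Kit. Of 4 mast cell markers, 3 were not well above background on either array, and the fourth, Tpsb2, had 511 and 415 on its brighter probe (log2 -0.88) and 205 and 333 on the other (log2 0.12). What mast cells added to the value of Kit was not tested.

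Alcam had high intensities in both RNAs and little difference. Its probe spans a splice junction on chromosome 16 (52268908 to 52270785, mm9, base 2013), within the coding sequence. The intensities were 8500 and 15300, a 1.20-fold difference (log2 0.26, error 0.20). Cd6, the surface molecule of T cells that binds ALCAM, had 634 and 3930 on its brighter probe, 4.14-fold higher, and 46.7 and 34.5 on the other (log2 -1.02), so its probes disagreed in direction.

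Ncam1, the neural cell adhesion molecule, was higher by its coding probe alone. The probe at base 2012 (chr9:49351182-49351241, minus strand, mm9), shown here because it is the Ncam1 probe past 4-fold, had intensities of 47.0 and 413, a 5.87-fold difference (log2 2.55, error 0.30), which was 1.35, under 4-fold, after normexp correction.
Ncam1 base 2012: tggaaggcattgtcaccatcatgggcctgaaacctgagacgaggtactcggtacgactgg

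Of the non-coding probes, that at base 4688 (49323381 to 49323440) was not well above background on either array, with 6.19 and 4.16. That at base 6856 (49310320 to 49310379) had 42.0 and 53.6, a difference of -0.23 with an error of 0.30. The span of 2.78 between the measured probes was reached by 4.76% of genes with 2 such probes, whose median span was 0.66. The direction of the probe at base 6856 turned to 0.04 under scaling to Gapdh. Fgfr1, a receptor that NCAM activates, also had probes that disagreed. Its brightest had 18500 and 25500 (log2 -0.12) and shares 20 bases with probes of 7 other genes, while the other 2 share none and were 14.5-fold and 10.5-fold higher.

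Vcam1 was higher by both probes on chromosome 3. The coding probe at base 842 (chr3:115828953-115829012, minus strand, mm9) had intensities of 169 and 2290, a 9.05-fold difference (log2 3.18, error 0.21), and is shown because it has the larger difference.
Vcam1 base 842: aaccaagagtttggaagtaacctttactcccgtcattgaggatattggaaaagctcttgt

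The non-coding probe at base 3060 (115813216 to 115813275) had 105 and 436, a 2.77-fold difference (log2 1.47, error 0.23). Both moved the same way, and their span of 1.71 was larger than their errors. It was reached by 16.0% of genes with 2 measured probes. Of the integrin subunits that bind VCAM-1 on leukocytes, Itga4 had a log2 difference of -0.85, Itgb1 of -0.43 and Itgb7 of 0.62, each by its brightest probe, all within 4-fold.

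Icam1 was 5.36-fold higher, with intensities of 1730 and 13900 (log2 2.42, error 0.20). Its probe lies in the coding sequence on chromosome 9 (20832290 to 20832349, plus strand, mm9, base 1588). Of the leukocyte integrins that bind ICAM-1, Itgb2 had 179 and 195 (log2 -0.46). The brightest probe of Itgal had -0.24, a dimmer one was at least 9.75-fold higher, and the third was not well above background on either array. The brightest probe of Itgam had 92100 and 84700 (log2 -0.70) and shares 20 bases with probes of 23 other genes, while the other 2 had -0.01 and 0.37. In order of difference or bound, Vcam1 (base 842), Ncam1 (base 2012) and Icam1 followed Cd24a and the Cd44 probes at bases 1777 and 1965. Ncam1 and Icam1 differed by less than their errors, as did Kit and the Vcam1 probe at base 3060.

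Icam1 and Vcam1 are textbook targets of NF-kB, a transcription factor that inflammatory cytokines activate. The 250 bases before the start of each gene were searched on both strands for GGNNNTTCC, letters found in many NF-kB sites. RefSeq windows of GRCm38.p6 were given for 6 members (Cd44, Prom1, Anpep, Kit, Alcam and Icam1), 8 windows in all, and 1 of the 8 held the letters, against 15.7% of 32851 windows. It was that of Icam1 (chr9:21015690-21015939, plus strand, GRCm38.p6), printed here with its 2 matches in capitals, the first of them 153 bases before the start.
Icam1 promoter: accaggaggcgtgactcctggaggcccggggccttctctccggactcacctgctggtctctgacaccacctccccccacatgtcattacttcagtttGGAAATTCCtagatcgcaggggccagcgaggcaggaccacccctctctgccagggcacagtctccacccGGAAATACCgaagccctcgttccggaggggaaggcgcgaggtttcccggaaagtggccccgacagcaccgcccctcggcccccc

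A match of letters is a description and does not show binding. Cd24a, Ncam1 and Vcam1 had no window. Of 10 other genes known to be induced by such cytokines, 9 had differences above 0 and 4 were at least 4-fold higher, against 5.59% of all genes. The median of the 10 was 0.81, against -0.04 over all genes. It was 1.93 without bounds and 2.59 over probes well above background on both arrays. The 4 were Cxcl1 with 677 and 22300 (22.0-fold), Cxcl10 with 141 and 4080 on its brighter probe (19.3-fold), Ccl2 with 339 and 3245 (6.39-fold), all chemokines, and Nfkb2, a subunit of NF-kB, with 351 and 3160 (6.01-fold). Tnfaip3 (a bound of 0.48), Birc3 (0.50) and Relb (0.59) were higher by little. Other probes gave a bound of 2.14 for Birc3, and 0.21 and -0.12 for Relb. Sele, the endothelial E-selectin, was the exception, with 70.8 in MHs and a signal not well above background in Sox9+EpCAM- cells, at least 5.76-fold lower. Nfkbia, the inhibitor that NF-kB itself induces, had a difference of 0.65.

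The rest of the adhesion family was read in the same way. Of 18 related adhesion molecules on the array, 15 had a difference, of which 1 was at least 4-fold higher and 1 lower, with a median of -0.17, which turned to 0.09 under scaling to Gapdh. The higher was Bcam, a laminin receptor, with 51.8 and 366 (4.72-fold), and the lower was Sele. Icam2 had a difference of -1.44 and Pecam1 of -0.75, so Icam1 and Icam2 went in opposite directions. Of 17 other surface markers of liver progenitors, 4 were at least 4-fold higher and 2 lower, against 5.59% and 5.57% of all genes. The median of this list was 0.76. The study had already named Cd63 and Smo as upregulated on these arrays, so the count describes this list alone. Beside Epcam the higher ones were Cd63, a tetraspanin of late endosomes, at least 134-fold, Cd34, a sialomucin of stem and endothelial cells, 9.86-fold by its brighter probe with a bound of 0.10 by the other, and Ly6a, the stem cell antigen Sca-1, 4.40-fold. The lower ones were Prom2 and Lgr5, a receptor for R-spondins, which was at least 7.36-fold lower. Smo, the signal transducer of the Hedgehog pathway, was not counted as higher, since its brightest probe had 110000 and 104000 (log2 -0.66) and shares 20 bases with a probe of 1 other gene, while its other probe, with no such stretch, had 7.65, not well above background, and 1290, at least 31.0-fold higher. The 11 other binding partners with a difference had a median of -0.43, of which Cd6 was at least 4-fold higher and Selp and Siglecg were lower.

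**Figure D4:**
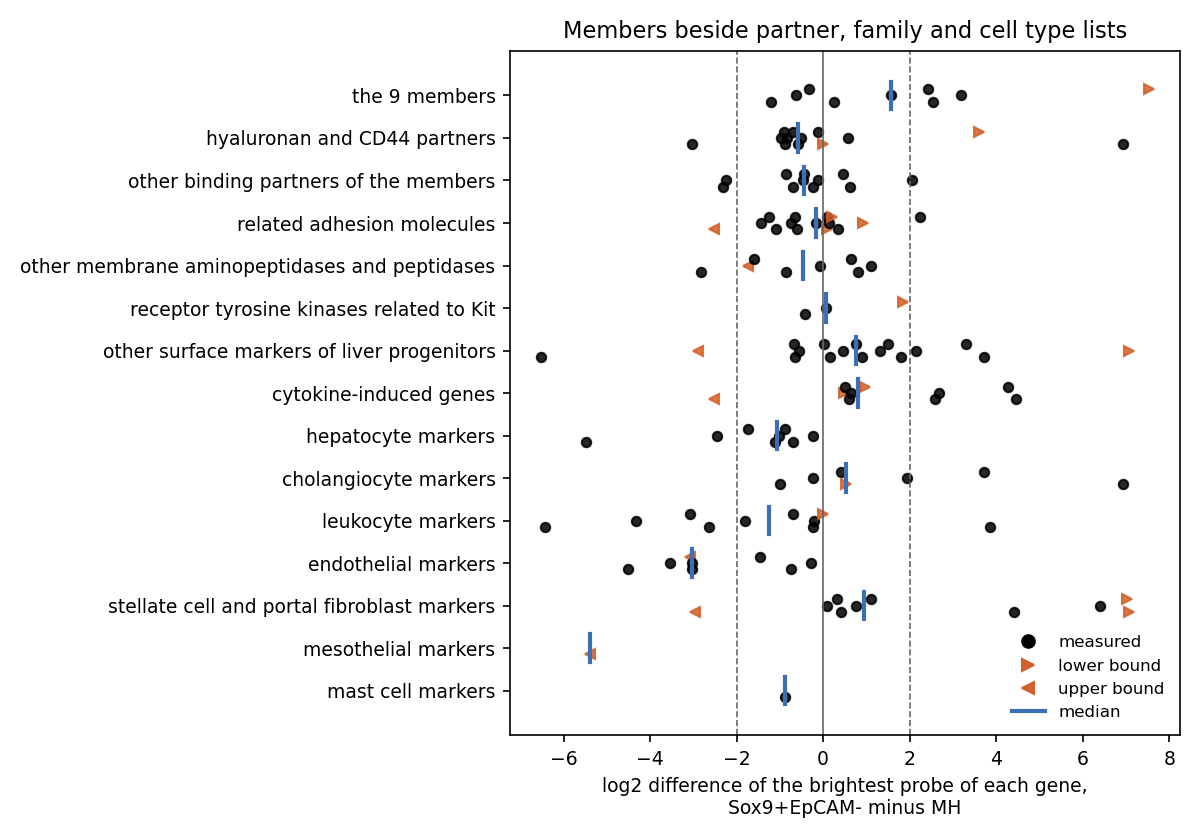
Log2 difference (Sox9+EpCAM- minus MH) of the brightest probe of each gene, for the 9 members and the lists set beside them. Points were measured on both arrays, triangles are lower or upper bounds, blue bars are medians and dashed lines mark 4-fold. The medians of the members, the other progenitor markers, the cytokine-induced genes, the cholangiocyte list and the fibroblast list lie above 0, and those of the hepatocyte, leukocyte and endothelial lists below.

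Several members are also carried by other cells of the liver, so markers of these cells were read beside them. CD24 and CD44 occur on cholangiocytes. Of 7 cholangiocyte markers, 2 (Epcam and Spp1) were at least 4-fold higher, the median was 0.53 (1.93 without bounds), Krt19 had 73.1 and 146 (log2 0.42), Krt7 had 509 and 648 (log2 -0.23), and the summed signal went from 2.27 to 48.9 times the 75th percentile, mostly through Spp1. Sox9 itself had an intensity of 60.2 in Sox9+EpCAM- cells and was at least 1.45-fold higher, its MH signal not being well above background. VCAM-1, NCAM and ALCAM occur on stellate cells and portal fibroblasts. Of 10 markers of these cells with a difference, 4 were at least 4-fold higher, namely Col1a1 (21.3-fold), Col3a1 (85.1-fold), Eln (at least 134-fold) and Mgp (at least 129-fold). The median was 0.94. Des (log2 0.09), Dcn (0.31), Acta2 (0.42), Thy1 (0.76) and Reln (1.11) were higher by less than 4-fold. Lrat, which marks vitamin A-storing stellate cells, was at least 7.70-fold lower, Pdgfrb was not well above background on either array, and the summed signal went from 12.4 to 47.3. What these cells added to the values of Cd24a, Cd44, Ncam1 and Vcam1 was not tested.

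Leukocytes carry CD44, and endothelial cells carry ICAM-1 and VCAM-1. A gate that drops CD45+ leukocytes and CD31+ endothelial cells was used by the study in flow cytometry of GFP+EpCAM- cells from DDC-fed Sox9-EGFP mice, and whether it was set for the array cells is not stated. Of 10 leukocyte markers, 4 were at least 4-fold lower, namely Emr1, Clec4f, Lyz2 and Cd74, 1 was higher, the lysosomal Cd68 with 14.4-fold, and the median was -1.25, or -1.80 without Cd79a, whose bound fell under 1-fold. The summed signal went from 149 to 79.8, mostly through the bright Itgam probe with shared stretches, and without it from 24.9 to 3.46. Ptprc, which encodes CD45, had 195 and 248 (log2 -0.24), and the T cell marker Cd3e had 97.9 and 126 (log2 -0.22). Of 8 endothelial markers with a difference, 5 were at least 4-fold lower, namely Cdh5, Stab2, Clec4g, Tek and Fcgr2b, none was higher, the median was -3.03 (-1.95 with normexp), and the summed signal went from 10.3 to 2.87. Of 4 mesothelial markers, 3 were not well above background on either array and Wt1 was at least 41.6-fold lower. What these cells added to the values of Cd44, Icam1 and Vcam1 was not tested.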

How the data were processed

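The authors had the RNA of MHs and of Sox9+EpCAM- cells labelled with Cy3 and hybridised by a service provider. The authors deposited the spot intensities of Feature Extraction 10.7.3.1 with background subtracted, and a table of ratio values, which are the intensities over the median of each array. Both arrays lay on 1 slide. Here, control spots and 276 outlier spots were left out, spots of a probe were averaged as log2, and 39390 probes remained, of which 24161 were well above background on both arrays. Of 43020 spots, 27523 (MHs) and 32158 (Sox9+EpCAM- cells) were well above background. Intensities were divided by the 75th percentile of their array. A probe dim on 1 array was given a bound from its own value or the dimmest reliable probe there (27.8 and 18.4), whichever was higher, and a bound under 1-fold gave no direction and entered counts and medians as 0 (2085 probes, 1542 genes). A gene was its probe with the highest mean, and 4-fold was the rule of size. Counts of a list at 4-fold are to be read beside the shares over all genes, 5.59% higher and 5.57% lower. Precision is limited by having 1 array per group.

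The text names the 9 members, the genes of the lists past 4-fold, and the direct binding partners. Genes of the lists named below 4-fold (for example Krt7, Krt19, Ptprc, Icam2, Pecam1, Esrp1, Esrp2, Nfkbia, Itgb7, Pdgfra, Csf1r, Flt3, Pdgfrb, Sox9, Smo, Cd3e, Cd79a, Mme and Tpsb2) were picked with their values in view. The members and the lists were chosen with earlier results of these data known. Probe coordinates are those of the array design (mm9), and whether a probe is coding was judged from its place in the transcript and its open frames, since no annotation of that build was used. Promoters are those of RefSeq. The alternatives were normexp (limma 3.58.1, R 4.3.3, offset 50), 3 other scalings, outlier spots kept, the deposited ratio table, no bounds, only probes above background on both arrays, 2-fold and 10-fold, and other probes for a gene. Leaving out probes with a shared stretch of 20 bases (also for the span of Cd44) or with a bound under 1-fold was chosen after seeing the data. Changes of over 1.5-fold were counted as moves. Python 3.11.15, pandas 2.3.3 and numpy 2.4.6 were used, and the steps were tested on simulated data.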

Additional observations from a re-analysis of the deposited data

How the results depend on the processing

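No replicate could be left out and no slide effect fitted. No paired analysis was possible because there was 1 array of each kind. Of 133 values of member probes under the alternatives, 7 moved by more than 1.5-fold. No difference of at least 4-fold changed sign, and of the smaller ones that of the Ncam1 probe at base 6856 alone did, to 0.04 under scaling to Gapdh. Normexp, whose offset compresses low signals, gave 5.91 for Cd24a, 2.87 and 2.68 for the Cd44 probes at bases 1777 and 1965, 0.59 for Kit and 1.35 for the Ncam1 probe at base 2012, which then missed 4-fold, so that 5 member probes and 3 member genes passed it, beside 2.71% of all probes (2.76% lower). Without the bound Cd24a had 9.72 and the Cd44 probe 6.55, ratios to signals not well above background. At 2-fold, 8 member probes and 5 member genes were higher (15.4% of all probes, 14.2% of all genes) and 2 probes (both of Prom1) and 1 gene lower (16.9% and 16.7%). At 10-fold, 3 probes and 1 gene (Cd24a) were higher (1.77% and 1.55%) and 0 lower (1.47% of each). With the median of all probes 4 member genes were at least 4-fold higher, but Cd44 (2.44) replaced Ncam1 (1.16). Without probes that share a stretch, Cd44 had 0.90 and the count stayed at 4. The median of probes measured on both arrays shifted by 0.27 under scaling to Gapdh and by -0.18 in the deposited table. These left 7.78% and 5.37% of all probes at least 4-fold higher and 4.38% and 6.85% lower. Probes above background on both arrays alone left 4 member probes past 4-fold, since the bounds of Cd24a and Cd44 drop out, beside 4.18% of 24161 probes (4.92% lower). Of 153 list medians, 9 moved by more than 1.5-fold. The cytokine-induced median was 1.93 without bounds and 2.59 over probes above background on both arrays, and the cholangiocyte median 1.93 and 1.17. Normexp gave -1.95 for the endothelial list, under 4-fold, and -3.39 for the mesothelial list, which had -7.37 without bounds. The median of all probes gave -1.06 for the peptidases and -0.65 for the receptors related to Kit. In 8 cases, all in 2 lists, a median changed sign, to between 0.08 and 0.10 for the related adhesion molecules and to between -0.65 and -0.03 for the receptors related to Kit. Leaving out bounds under 1-fold changed no member value, and 6.70% of the other 27987 probes were at least 4-fold higher and 6.17% lower. Signal over background limits Cd24a, the Cd44 probes at bases 1777 and 1965, Kit and Ncam1.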
